A study of Mus musculus with 79 samples.

Results

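The cortical layer markers described here were 9 genes of 55471 in the count table, chosen by name as known labels of cortical layers. They were Cux2 and Rorb for the upper layers, Fezf2, Bcl11b, Foxp2, Tle4, Tbr1 and Rprm for the deep layers, and Slc17a7 for excitatory neurons of all layers. Each symbol matched 1 gene identifier, and all 9 passed the filter on low counts in both regions. The libraries came from the medial prefrontal cortex (mPFC) and the ventral hippocampus (vHipp) of 40 wild-type male CD-1 mice, an outbred stock, sampled with punches 1 mm wide. The authors give an age of 9 to 10 weeks and do not state the age at tissue collection. The groups were control mice given saline (ctrl_Saline) or ketamine (ctrl_Ketamine) and mice exposed to chronic social defeat stress given saline (csds_Saline) or ketamine (csds_Ketamine), named CTRL and CSDS by stress. All mice were housed in groups of 4, defeat was repeated for 21 days, and a single injection of saline or of ketamine at 10 mg/kg was followed by tissue collection 7 days later. Each group had 10 libraries per region, apart from 9 mPFC libraries of csds_Ketamine, so that 79 libraries were analysed and 39 mice had both regions.

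In the neocortex, excitatory neurons are stacked in layers that are made at different times and send their axons to different targets. Neurons of the upper layers mostly connect cortical areas with each other, neurons of layer 5 project to the brainstem, spinal cord and striatum, and many neurons of layer 6 project to the thalamus. Most of the genes described here encode transcription regulators that are used as labels of these layers. Cux2 is a Cut homeodomain factor of the upper layers, and Rorb is a nuclear receptor that marks layer 4 and its neighbours. Fezf2 is a zinc finger factor that specifies subcerebral projection neurons, and Bcl11b, also known as Ctip2, acts in the same neurons. Tbr1 is a T-box factor of layer 6, Foxp2 is a forkhead factor of layer 6, and Tle4 is a corepressor of corticothalamic neurons. Rprm encodes reprimo, a p53-inducible cell cycle inhibitor used as a marker of layer 6, and Slc17a7 encodes VGLUT1, the vesicular glutamate transporter of cortical and hippocampal neurons. Several of them are also made elsewhere, such as Bcl11b in the dentate gyrus, in CA1 and in striatal neurons, and Rorb in astrocytes.

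Library sizes lay between 11726129 and 41767119 counts, with a median of 19638060. In bulk tissue, fewer cells of a type and less RNA per cell cannot be told apart, so that every level below is a level per library. The regional labels were checked with marker genes fixed as lists. All 7 markers of dentate granule cells and 7 of 9 markers of hippocampal pyramidal cells were lower in the mPFC than in the vHipp, and the other 2 pyramidal markers were higher. One vHipp library, that of mouse 11 in csds_Ketamine, stood apart: its summed astrocyte markers reached 11847 CPM, that is counts scaled to a library of 1000000, against a median of 4500 CPM over the 40 vHipp libraries. Calls of the vHipp that changed without it are named below, and the nearest genes were not searched again without it.

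In the GRCm38 mouse genome, Cux2 spans chr5:121856366-122050102 and Rorb chr19:18930605-19111196. Of the deep-layer genes, Fezf2 spans chr14:12342094-12348189, Bcl11b chr12:107910403-108003602, Foxp2 chr6:14901349-15441977, Tle4 chr19:14448150-14598051, Tbr1 chr2:61802930-61814114 and Rprm chr2:54084093-54085552. Slc17a7 spans chr7:45163949-45176142. Counts were summed over whole genes, so that no value below refers to a single exon.

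The promoters of 8 members were found in RefSeq (GRCm38.p6), and that of Foxp2 was not. They made up 11 annotated promoters, taken as the 250 bases before the start of transcription in RefSeq. The windows follow the RefSeq starts, and some of them lie inside the gene spans given above, namely those of Cux2, Fezf2 and Tbr1, the second of Rorb and of Tle4, and in part that of Bcl11b. Those of Cux2, Tle4 and Tbr1 are shown, since Tle4 and Tbr1 were the pair whose levels moved most closely together in the mPFC and Cux2 moved opposite to both. Every CpG is in capitals, and each sequence is written along its own strand.

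Cux2, promoter 1, chr5:122049852-122050101, minus strand: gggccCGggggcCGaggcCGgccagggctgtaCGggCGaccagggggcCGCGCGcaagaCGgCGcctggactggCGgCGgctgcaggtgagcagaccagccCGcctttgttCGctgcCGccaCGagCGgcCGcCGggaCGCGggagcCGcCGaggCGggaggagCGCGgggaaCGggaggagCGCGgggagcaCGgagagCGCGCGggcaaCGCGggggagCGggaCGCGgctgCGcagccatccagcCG

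Tle4, promoter 1, chr19:14598184-14598433, minus strand: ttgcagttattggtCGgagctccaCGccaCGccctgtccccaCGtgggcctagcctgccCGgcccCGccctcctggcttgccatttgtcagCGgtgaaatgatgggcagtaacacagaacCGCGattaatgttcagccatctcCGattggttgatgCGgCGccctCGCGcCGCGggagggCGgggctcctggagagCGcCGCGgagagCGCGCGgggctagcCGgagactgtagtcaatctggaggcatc

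Tbr1, chr2:61804203-61804452, plus strand: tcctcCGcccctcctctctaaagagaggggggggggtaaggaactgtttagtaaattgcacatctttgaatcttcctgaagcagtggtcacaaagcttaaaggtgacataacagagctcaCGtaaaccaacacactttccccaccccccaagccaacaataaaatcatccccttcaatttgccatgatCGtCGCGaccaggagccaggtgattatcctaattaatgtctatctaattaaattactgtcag

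The tightly covarying Tle4 and Tbr1 promoters were unlike each other in base composition. Promoter 1 of Cux2 held 40 CpG with 80% G and C, promoter 1 of Tle4 24 CpG with 65.2% and the Tbr1 promoter 5 CpG with 45.2%. The median over 32851 promoters was 6 CpG and 52.4%, and promoter 2 of Cux2, with 3 CpG and 55.2%, was below the former. In all, 8 of the 11 member promoters had more CpG than that median. Of 4 short motifs searched on both strands, 2 of which (AGGTGTGA and AGGTCA) share their first letters, the Cut homeodomain motif ATCGAT was in 1 of the 11 promoters, the second promoter of Cux2, and in 0.728% of all promoters. The T-box motif AGGTGTGA (1.12% of all promoters), the forkhead motif GTAAACA (3.17%) and the half-site of the ROR element AGGTCA (14.0%) were in 0 of the 11.

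The levels within each region were compared per kilobase of exon, since the genes differ in length. In the mPFC, Slc17a7 was far above the others at 287 ± 24.4 CPM per kilobase (SD, n = 39). Tbr1 followed at 29.9 ± 4.32. Cux2 at 19.9 ± 4.37, Fezf2 at 19.5 ± 5.13 and Rprm at 19.0 ± 9.16 CPM per kilobase lay within one another's spread, as did Bcl11b at 9.41 ± 2.09 and Tle4 at 9.26 ± 2.196. Rorb at 2.24 ± 0.272 and Foxp2 at 0.406 ± 0.207 CPM per kilobase were the lowest. In the vHipp the order changed. Slc17a7 was again first at 341 ± 55.6 CPM per kilobase (SD, n = 40), followed by Rprm at 21.1 ± 4.86 and Bcl11b at 17.5 ± 4.17, which lay within each other's spread. Tle4 at 13.4 ± 1.89, Fezf2 at 10.5 ± 3.13 and Tbr1 at 8.51 ± 1.43 CPM per kilobase formed a descending series of overlapping neighbours. Cux2 at 3.39 ± 0.506 and Rorb at 1.74 ± 0.585 were low, and Foxp2 was the lowest at 0.0872 ± 0.0602 CPM per kilobase, with as few as 4 reads in a library.

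**Figure D1:**
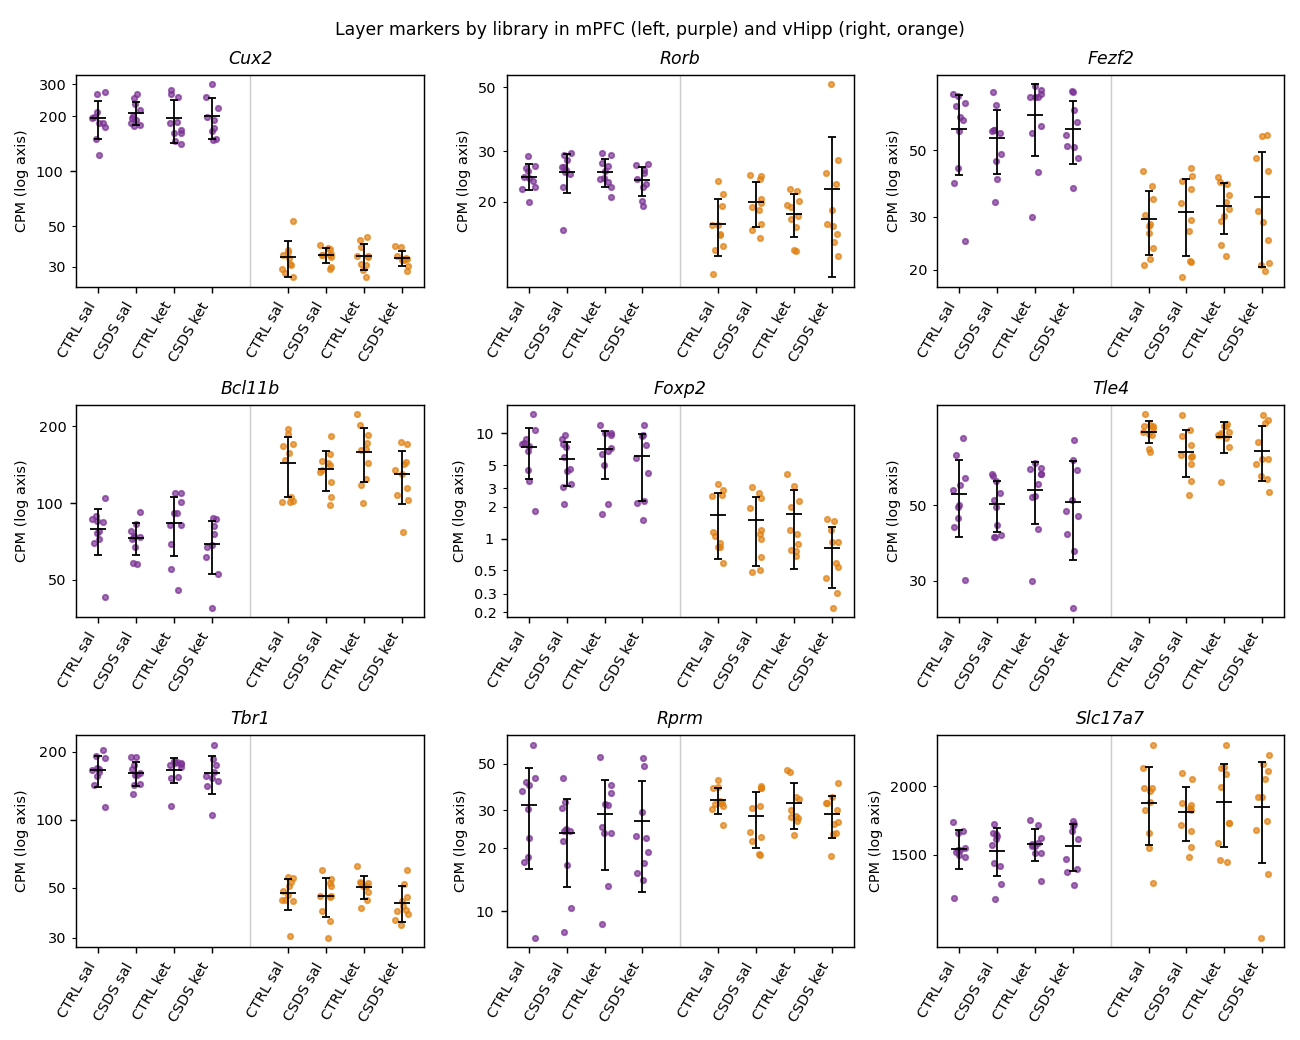
CPM of each layer marker (log axis) in every library of the 4 groups, with the mPFC on the left in purple and the vHipp on the right in orange. The groups of a region overlapped for every gene, whereas Cux2 (123.3 to 300.1 CPM in the mPFC, 26.2 to 53.5 in the vHipp) and Tbr1 (104.9 to 216 against 30.0 to 62.5) separated the regions without overlap. Shares over all genes were not counted.

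The first comparison was between the regions, since the genes were picked as labels of cortex. Cux2, Foxp2, Tbr1, Fezf2 and Rorb were higher in the mPFC, Bcl11b, Tle4 and Slc17a7 were higher in the vHipp, and Rprm did not pass the test. By edgeR's quasi-likelihood test, with p-values adjusted by the Benjamini-Hochberg method, 8 of the 9 members passed an adjusted p of 0.05, against 48.9% of the 31534 genes tested. Of the members, 5 were higher in the mPFC, against 24.5% of all genes, and 3 were lower, against 24.4%. The median of the absolute log2 fold change (LFC) was 0.89 over the members and 0.26 over all genes. How many of all genes had regional ranges without overlap, as given below for Cux2 and Tbr1, was not counted.

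Among the upper-layer genes, Cux2 ranged over 123.3 to 300.1 CPM in the mPFC (median 190, n = 39) and over 26.2 to 53.5 CPM in the vHipp (median 34.0, n = 40). The ranges did not overlap, and Cux2 was higher in the mPFC in 39 of 39 mice (LFC 2.55, SE 0.06, adjusted p = 1.44e-51). Rorb differed far less, with 16.0 to 29.6 CPM in the mPFC (median 25.2) and 11.3 to 51.2 CPM in the vHipp (median 18.3). Its ranges overlapped, it was higher in the mPFC in 35 of 39 mice, and its LFC was 0.37 (SE 0.07, adjusted p = 1.72e-06), or 0.44 without mouse 11, whose vHipp library held the highest Rorb level.

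Among the deep-layer genes, Tbr1 ranged over 104.9 to 216 CPM in the mPFC (median 166) and over 30.0 to 62.5 CPM in the vHipp (median 46.2). The regions did not overlap, and Tbr1 was higher in the mPFC in 39 of 39 mice (LFC 1.81, SE 0.05, adjusted p = 1.05e-46). Foxp2 lay at 1.51 to 15.2 CPM in the mPFC (median 6.87) and at 0.22 to 4.15 CPM in the vHipp (median 1.07). It was higher in the mPFC in 38 of 39 mice (LFC 2.24, SE 0.19, adjusted p = 7.68e-18), although the ranges overlapped. Fezf2 lay at 24.9 to 81.9 CPM in the mPFC (median 58.5) and at 18.9 to 56.0 CPM in the vHipp (median 30.3), higher in the mPFC in 38 of 39 mice (LFC 0.89, SE 0.09, adjusted p = 3.07e-14). These 3 layer factors of cortex thus had a clear but unequal excess in the mPFC.

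Bcl11b and Tle4 went the other way. Bcl11b lay at 38.9 to 110 CPM in the mPFC (median 76.2) and at 77.1 to 223 CPM in the vHipp (median 142.4), and it was lower in the mPFC in 38 of 39 mice (LFC -0.90, SE 0.07, adjusted p = 9.85e-19). Tle4 lay at 25.0 to 78.9 CPM in the mPFC (median 52.8) and at 53.7 to 92.7 CPM in the vHipp (median 80.4), also lower in the mPFC in 38 of 39 mice (LFC -0.54, SE 0.06, adjusted p = 1.30e-11). Rprm lay at 7.51 to 61.4 CPM in the mPFC (median 24.0) and at 18.2 to 46.4 CPM in the vHipp (median 31.1). Its wide mPFC range enclosed the vHipp range, it was higher in the mPFC in 17 mice and in the vHipp in 22, and its LFC was -0.16 (SE 0.12, adjusted p = 0.309). Slc17a7 lay at 1249 to 1732 CPM in the mPFC (median 1558) and at 1059.9 to 2380 CPM in the vHipp (median 1856), lower in the mPFC in 31 of 39 mice (LFC -0.25, SE 0.05, adjusted p = 1.22e-06).

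**Figure D2:**
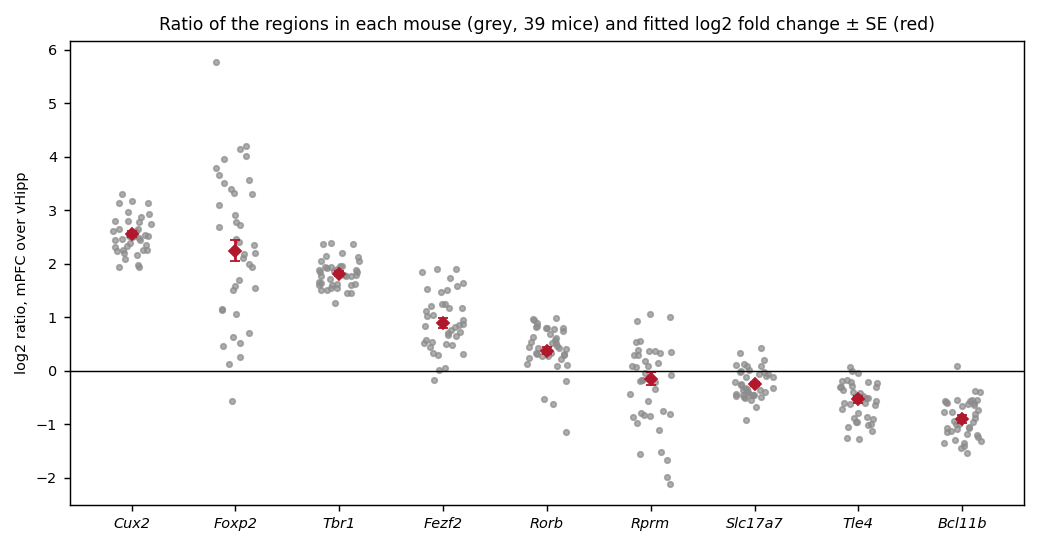
Log2 ratio of the mPFC over the vHipp level of each layer marker in the 39 mice with both regions (grey points) and the fitted LFC with its SE (red). Cux2 and Tbr1 were above 0 in every mouse, Bcl11b and Tle4 were below 0 in 38 of 39, and Rprm spread on both sides, from -2.11 to 1.06.

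Further layer markers, listed for the same layers, were less uniform. Of 13 other upper-layer genes, 11 were higher and 1 was lower in the mPFC, and the median LFC of the list was 1.04 against -0.00 over all genes. Mef2c, an activity-dependent transcription factor, was higher (LFC 2.70), and the netrin receptor gene Unc5d was lower (LFC -0.85). Of 5 other layer 4 genes, 4 were higher and 1 was lower, with Kcnh5, a potassium channel gene, at an LFC of 1.70 and Scnn1a, an epithelial sodium channel subunit gene, at -1.72. Of 14 other layer 5 genes, 5 were higher, 6 were lower and 3 did not pass, and the median LFC was -0.06. Deptor, an inhibitor of mTOR (LFC 2.29), and Ldb2, a LIM domain binding cofactor (LFC 1.83), were higher, whereas Slc17a8, encoding VGLUT3 (LFC -1.22), and Crym, encoding a thyroid hormone binding protein (LFC -1.20), were lower. Of 14 other layer 6 genes, 9 were higher and 5 were lower with a median LFC of 1.11, led by Ntsr1, the neurotensin receptor of corticothalamic neurons (LFC 2.55), and Car3, a carbonic anhydrase (LFC 1.96), with Thsd7b at -2.65. Of 5 layer 6b genes, 2 were higher and 2 were lower, with Ccn2 at 2.24, Cplx3 at 1.56, Nr4a2 at -2.25 and Moxd1 at -0.89. Crym stood on both the layer 5 and the layer 6 list, and Cux1 on both the upper-layer and the layer 4 list.

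The second set of comparisons asked whether stress, ketamine or their interaction moved the layer markers within a region. No member passed an adjusted p of 0.05 in any of the 10 comparisons by edgeR's quasi-likelihood test, where the share of all genes called was 0%, and DESeq2 also called 0 genes. Member levels overlapped between all groups of a region for every member. How many of all genes did so was not counted.

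At an unadjusted p under 0.05, 0 of 9 members fell in each mPFC comparison. The share of all genes was 2.94% for CSDS against CTRL in saline-treated mice, 5.8% for the same comparison in ketamine-treated mice, 3.64% and 4.32% for ketamine against saline in the CTRL and the CSDS arm, and 5.31% for the interaction. In the vHipp the count was 1 of 9 for CSDS against CTRL in saline-treated mice (5.57% of all genes), 3 of 9 in ketamine-treated mice (5.42%), 0 of 9 for ketamine in CTRL mice (2.88%), 1 of 9 for ketamine in CSDS mice (2.9%) and 0 of 9 for the interaction (2.84%). Without mouse 11 the vHipp counts were 2 of 9 for CSDS against CTRL in saline-treated mice (Rorb and Tle4), 2 of 9 in ketamine-treated mice (Foxp2 and Bcl11b) and 1 of 9 for ketamine in CSDS mice (Foxp2). Of all 28918 genes, 1835, 1196 and 956 were at that level, in the same order. In the last comparison all 6 choroid plexus, 7 dentate granule and 8 oligodendrocyte markers had a negative LFC (medians -1.12, -0.14 and -0.23). At that level were 2, 0 and 0 of them, and their part was not tested. By DESeq2 the numbers of all genes at an unadjusted p under 0.05 were between 521 and 1332, against 823 to 1681 by edgeR. Among the 51 entries of the other layer lists, between 0 and 5 per comparison were at an unadjusted p under 0.05.

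Foxp2 in the vHipp had the lowest unadjusted p of any member. Its level lay at 0.22 to 1.52 CPM in csds_Ketamine (median 0.76), at 0.68 to 4.15 CPM in ctrl_Ketamine (median 1.15), at 0.48 to 3.07 CPM in csds_Saline (median 1.15) and at 0.59 to 3.30 CPM in ctrl_Saline (median 1.10). The 4 groups overlapped, with the csds_Ketamine libraries reaching lowest. The LFC of CSDS against CTRL in ketamine-treated mice was -1.06 (SE 0.39, unadjusted p = 0.0093, adjusted p = 0.896 by edgeR's quasi-likelihood test), and -1.11 without mouse 11 (adjusted p = 0.978 by the same test). The csds_Ketamine libraries held 4 to 46 reads of Foxp2 each, the fewest of any member and group. In the mPFC, where Foxp2 is higher, the groups lay at medians of 5.79 CPM in csds_Ketamine, 5.32 in csds_Saline, 7.06 in ctrl_Ketamine and 7.78 in ctrl_Saline, with SDs of 3.84, 2.60, 3.46 and 3.79.

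In the same vHipp comparison, Tbr1 had an LFC of -0.22 (unadjusted p = 0.0336) and Bcl11b an LFC of -0.29 (unadjusted p = 0.0493), with the adjusted p of neither under 0.05. Mouse 11 had the lowest Tbr1 of csds_Ketamine, at 34.0 CPM, and the highest Bcl11b, at 174 CPM. Without it the LFC was -0.19 for Tbr1 (unadjusted p = 0.0747) and -0.34 for Bcl11b (unadjusted p = 0.0261). Markers of other cells lay to one side in this comparison, and their part in it was not tested. All 7 dentate granule markers had a negative LFC, with a median of -0.45 against 0.01 over all genes, and 4 of them an unadjusted p under 0.05. Their sum lay at 136.7 to 524 CPM in csds_Ketamine (median 307) and at 296 to 621 CPM in ctrl_Ketamine (median 466.3). All 6 microglial markers had a positive LFC, with a median of 0.30 and 5 at an unadjusted p under 0.05, and so had all 6 astrocyte markers, with a median of 0.26 and 2 at that level. Without mouse 11 the median LFC was 0.13 for the microglial and 0.06 for the astrocyte list, with 0 genes of either at an unadjusted p under 0.05, against -0.42 and 1 gene for the dentate granule list. The microglial sum lay at 228 to 677 CPM in csds_Ketamine (median 267), highest in mouse 11, and at 222 to 310 CPM in ctrl_Ketamine (median 263), and without mouse 11 it reached 389 CPM in csds_Ketamine (median 251). The astrocyte sum lay at 3435 to 11847 CPM in csds_Ketamine (median 4713) and at 3995 to 5633 CPM in ctrl_Ketamine (median 4770), and without mouse 11 it reached 6749 CPM in csds_Ketamine (median 4422). Of the other lists of cell types, the hippocampal pyramidal (2 of 9) and striatal (2 of 12) lists had the most genes at an unadjusted p under 0.05. No gene of these lists passed an adjusted p of 0.05 by edgeR's quasi-likelihood test. Tle4 had an LFC of -0.18 for CSDS against CTRL in saline-treated mice (unadjusted p = 0.0401), and its vHipp medians were 68.4 CPM in csds_Ketamine, 70.2 in csds_Saline, 81.3 in ctrl_Ketamine and 83.2 in ctrl_Saline. The saline groups overlapped, since the highest csds_Saline library, at 92.1 CPM, lay above the ctrl_Saline median. In this comparison too, all 7 dentate granule markers had a negative LFC (median -0.24, 1 at an unadjusted p under 0.05), all 6 microglial markers a positive one (median 0.24, 2 at that level) and 5 of 6 astrocyte markers a positive one (median 0.20, 0 at that level), against a median of -0.01 over all genes. Of the hippocampal pyramidal markers, 6 of 9 had a positive LFC (median 0.12) and 4 of 9 were at that level, as were 3 of 12 striatal markers (median -0.06). Of the choroid plexus markers, 5 of 6 had a positive LFC (median 0.57) and 2 were at that level, with a summed median of 29.0 CPM in csds_Saline, where mouse 9 reached 695.9 CPM, and of 26.8 CPM in ctrl_Saline. The dentate granule sum lay at 148.8 to 560 CPM in csds_Saline (median 366) and at 275 to 679 CPM in ctrl_Saline (median 460), and the microglial sum at 233 to 373 CPM (median 281) and at 183 to 287 CPM (median 253). The part of these cells in the Tle4 difference was not tested. None of these differences passed the correction over all genes. For CSDS against CTRL in saline- and in ketamine-treated mice, 7 and 8 of 9 members had a negative LFC in the mPFC (median -0.10 and -0.09, against -0.00 and 0.00 over all genes), and 6 and 7 of 9 in the vHipp (median -0.04 and -0.13, against -0.01 and 0.01). These comparisons describe a direction only, since the members covary and no single one passed. In the mPFC, 8 of 8 oligodendrocyte markers had a negative LFC in saline-treated mice (median -0.22) and 8 of 8 a positive one in ketamine-treated mice (median 0.43). Of the choroid plexus markers of the mPFC, 4 and 6 of 6 had a negative LFC (median -0.06 and -0.73). The part of these cells was not tested.

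In the mPFC the spread within groups was wide for several members. Cux2 in the mPFC had medians of 190 CPM in csds_Ketamine, 198 in csds_Saline, 175 in ctrl_Ketamine and 190 in ctrl_Saline, with SDs of 50.8, 31.4, 51.5 and 46.1. Fezf2 in the mPFC had medians of 56.1, 57.5, 75.2 and 63.8 CPM in the same order, with SDs of 14.1, 13.4, 17.6 and 17.5. Rprm in the mPFC varied most after Foxp2, with group ranges of 14.1 to 53.2, 7.96 to 42.9, 8.77 to 53.9 and 7.51 to 61.4 CPM. Slc17a7 in the mPFC varied least, with an SD of 8.50% of its mean over 39 libraries against 51.0% for Foxp2, 48.2% for Rprm, 26.3% for Fezf2 and 22.0% for Cux2.

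The spread between libraries of the mPFC was shared among the layer markers. This covariation was measured as the Pearson and Spearman correlation of log2 CPM across libraries after group means were removed, each with a permutation test of values within groups and an adjustment over the 72 pairs of members in both regions. In the mPFC the 6 deep-layer genes rose and fell together and opposite to Cux2. All 15 pairs of deep-layer genes had a positive r, between 0.60 and 0.93 with a median of 0.78, and 15 of 15 passed an adjusted p of 0.05. All 12 pairs of an upper- with a deep-layer gene had a negative r, between -0.75 and -0.23 with a median of -0.55, and 8 of 12 passed. In all, 33 of the 72 pairs passed, and none of the correlations is independent of the others, as they share genes and libraries.

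Tle4 and Tbr1 were the closest pair of the mPFC, with r = 0.93 and rho = 0.86 over 39 libraries (p = 1e-05 for both, the smallest the permutations can give, adjusted p = 4.5e-05 for r). Foxp2 followed, with r = 0.90 to Tle4 (rho 0.88) and r = 0.89 to Rprm (rho 0.87), both with a permutation p of 1e-05. These 4 genes are labels of layer 6. Of the layer 5 genes, Fezf2 had r = 0.85 with Rprm, 0.80 with Tle4, 0.77 with Tbr1 and 0.75 with Foxp2. Bcl11b had r = 0.77 with Tbr1, 0.76 with Tle4, 0.67 with Foxp2 and 0.60 with Rprm (rho 0.48, permutation p = 0.00012, adjusted p = 0.000393), the lowest of the 15. Fezf2 and Bcl11b had r = 0.72 with each other (rho 0.56).

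Cux2 had a negative correlation with each of the 6 deep-layer genes of the mPFC, and all 6 passed. Its r was -0.75 with Bcl11b (rho -0.72), -0.72 with Fezf2 (rho -0.63), -0.68 with Tle4 (rho -0.66), -0.68 with Tbr1 (rho -0.69), -0.57 with Rprm (rho -0.52) and -0.55 with Foxp2 (rho -0.53), with permutation p between 1e-05 and 0.00087 for r. Against 15656 genes of a mean CPM of at least 1, r with Cux2 was lower than that of Bcl11b for 0.166% and lower than that of Fezf2 for 0.339%. For Foxp2 the share was 3.82%. Leaving out the 2 libraries whose Cux2 level lay farthest from the median, r was -0.77 with Bcl11b, -0.75 with Fezf2 and -0.62 with Foxp2.

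Rorb followed Cux2 in the mPFC less closely, with r = 0.48 (rho 0.49, permutation p = 0.00116, adjusted p = 0.00288). It was negatively correlated with Fezf2 (r = -0.55, rho -0.61, permutation p = 0.00022) and with Rprm (r = -0.52, rho -0.53, permutation p = 0.00111). With Foxp2 and Tle4 r was -0.34 in both cases (adjusted p = 0.0642 and 0.0567), and with Bcl11b and Tbr1 it was -0.23 (adjusted p = 0.213 and 0.243). Slc17a7, the gene of all excitatory neurons, passed with 1 of 8 members only, Rprm (r = 0.52, rho 0.51, permutation p = 0.0013), and its r with Cux2 was 0.08 (adjusted p = 0.709). Without the 2 libraries farthest from the median on the first gene, Slc17a7 passed with 4 of 8 members, Rprm, Fezf2, Foxp2 and Tle4.

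**Figure D3:**
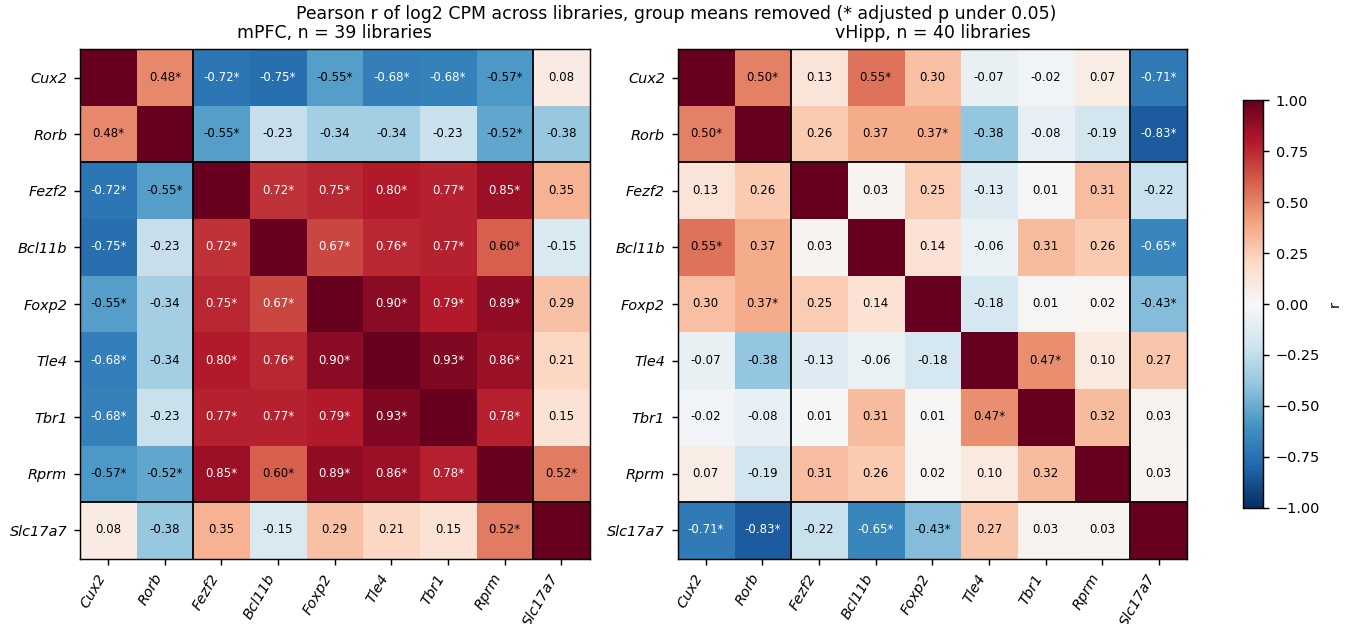
Pearson r of log2 CPM across the libraries of each region with group means removed, for all pairs of layer markers, where a star marks an adjusted p under 0.05. In the mPFC the deep-layer genes formed a positive block (0.60 to 0.93) that was negative to Cux2 (-0.75 to -0.55), whereas in the vHipp the deep-layer block lay between -0.18 and 0.47.

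Single libraries show the size of this variation. In the mPFC of mouse 1 (csds_Ketamine), Cux2 was at 300.1 CPM, the highest of 39 libraries, while Foxp2 at 1.51 CPM, Bcl11b at 38.9 CPM, Tle4 at 25.0 CPM and Tbr1 at 104.9 CPM were the lowest. In mouse 24 (ctrl_Saline), Cux2 was at 272 CPM, Fezf2 at 24.9 CPM and Rprm at 7.51 CPM were the lowest, and Foxp2 was at 1.84 CPM. By contrast, mouse 26 (ctrl_Ketamine) had Cux2 at 141.3 CPM, the highest Bcl11b at 110 CPM, Fezf2 at 79.5 CPM and Foxp2 at 9.64 CPM. Mouse 17 (csds_Ketamine) had Cux2 at 147.7 CPM and Rprm at 53.2 CPM. Not every library followed this opposition. Mouse 22 (ctrl_Saline) had the lowest Cux2 of the 39 libraries, at 123.3 CPM, but 4 of its 6 deep-layer genes lay below their medians, with Foxp2 at 3.51 CPM.

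Counted over all libraries, 11 of 39 mPFC libraries had all 6 deep-layer genes below their medians, and 10 of these 11 had Cux2 above its median. In 12 libraries no deep-layer gene was below its median, and 2 of these 12 had Cux2 above its median. The other 16 were mixed. The 2 kinds were not spread evenly over stress: 8 of the 11 libraries with all 6 below came from CSDS and 3 from CTRL mice, and 3 of the 12 with none below came from CSDS and 9 from CTRL mice. This is a count of libraries sorted by their own levels, with no test, and no member passed for stress in the mPFC. With all 6 below were CSDS mice 1, 3, 4, 6, 7, 8, 14 and 16 and CTRL mice 21, 23 and 24. With none below were CSDS mice 10, 12 and 17 and CTRL mice 26, 28, 29, 31, 34, 35, 37, 38 and 40. Many of these numbers were neighbours. Stress was given to whole groups of mice housed together, so that these libraries are not independent of each other. In the vHipp, 1 of 40 libraries had all 6 deep-layer genes below their medians, 4 had none below and 35 were mixed. The ratio of Cux2 to Fezf2 CPM spanned 1.78 to 10.9 in the mPFC, a 6.15-fold range, and 0.585 to 1.86 in the vHipp, a 3.18-fold range. The ratio of Cux2 to Rprm spanned a 13.1-fold range in the mPFC and a 2.88-fold range in the vHipp. Cux2 to Foxp2 was an exception, with a 16.4-fold range in the mPFC and an 18.2-fold range in the vHipp, where Foxp2 reads were few.

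**Figure D4:**
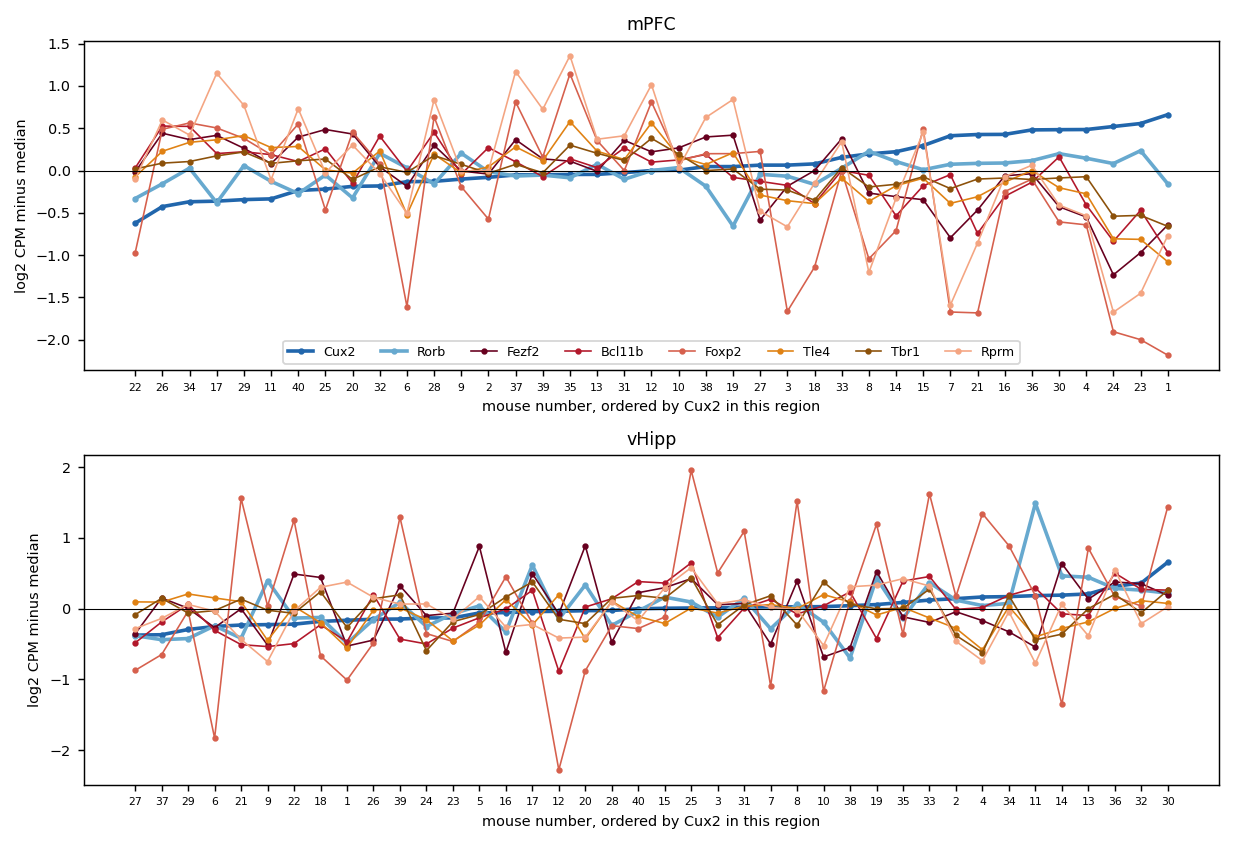
Log2 CPM minus the median for Cux2, Rorb and the deep-layer genes, with the libraries of each region ordered by Cux2. In the mPFC the deep-layer genes tended to fall as Cux2 rose to 300.1 CPM, and 10 of the 11 libraries with all 6 deep-layer genes below their medians had Cux2 above its median. An exception was mouse 22, with the lowest Cux2 (123.3 CPM) and 4 of 6 deep-layer genes below their medians.

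In the vHipp the deep-layer genes did not form such a group. Of their 15 pairs, 12 had a positive r, between -0.18 and 0.47 over all 15 with a median of 0.10, and 1 passed, Tle4 and Tbr1 (r = 0.47, permutation p = 0.0048, adjusted p = 0.0111), whose rho was 0.29 (permutation p = 0.092). Without mouse 11 that pair had r = 0.43, and Bcl11b with Tbr1 passed as well (r = 0.39, adjusted p = 0.0439, by permutation). Of the 12 pairs of an upper- with a deep-layer gene, 2 passed and both were positive, Cux2 with Bcl11b (r = 0.55, rho 0.57, permutation p = 0.00056) and Rorb with Foxp2 (r = 0.37, rho 0.41, permutation p = 0.0179, adjusted p = 0.0391). The latter did not pass without mouse 11 (r = 0.36, adjusted p = 0.0866), and Rorb with Fezf2, at r = 0.26 (adjusted p = 0.283) with that library, passed without it (r = 0.56, adjusted p = 0.00619). Rorb with Tle4, at r = -0.38 (adjusted p = 0.0648), passed as a negative pair with no group means removed (r = -0.47, permutation test, adjusted p = 0.00473) and with group and set means removed (r = -0.60, adjusted p = 0.000749). Cux2 and Rorb were correlated with each other as in the mPFC (r = 0.50, rho 0.55, permutation p = 0.00017).

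Slc17a7 was opposed to several layer markers in the vHipp. Its r was -0.83 with Rorb (rho -0.77), -0.71 with Cux2 (rho -0.69), -0.65 with Bcl11b (rho -0.67) and -0.43 with Foxp2 (rho -0.44), and all 4 passed (permutation p = 1e-05 for the first 3, the smallest the permutations can give, and 0.00621 for Foxp2). Without mouse 11, the lowest Slc17a7 library at 1059.9 CPM, r was -0.75, -0.75, -0.65 and -0.42 for these 4 genes, all 4 passed, and Fezf2 passed as well (r = -0.45, adjusted p = 0.02).

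The difference between the regions was tested directly by swapping the mPFC and vHipp libraries of a mouse at random in the 39 mice with both, adjusted over the 36 pairs. The correlation differed in 28 of 36 pairs. It was higher in the mPFC for 14 of 15 pairs of deep-layer genes and lower in the mPFC for 9 of 12 pairs of an upper- with a deep-layer gene. The largest difference was that of Cux2 with Bcl11b, at r = -0.75 in the mPFC and 0.55 in the vHipp (difference -1.30, permutation p = 1e-05, adjusted p = 0.00018). Foxp2 with Tle4 followed, at 0.90 and -0.17 (difference 1.07, permutation p = 1e-05). The 3 upper-deep pairs that did not pass were Rorb with Tle4, Tbr1 and Rprm, and the deep-layer pair was Bcl11b with Rprm (difference 0.34, permutation p = 0.115). For Cux2 with Rorb the difference was -0.02 (permutation p = 0.873). Without mouse 11, over 38 mice, 30 of 36 pairs differed, now with Rorb and Rprm (difference -0.55, permutation p = 0.0212, adjusted p = 0.0263) and Rprm and Slc17a7 (difference 0.72, adjusted p = 0.0095), and that of Cux2 with Bcl11b was -1.28. Between the mPFC and vHipp levels of the same member across the 39 mice, r was between -0.11 and 0.43 over the 9 members, and none passed (lowest adjusted p 0.103, permutation test, for Bcl11b).

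Runs of mouse numbers moved with the layer markers of the mPFC. The mice were numbered such that 4 consecutive CTRL mice and 4 consecutive CSDS mice made 5 sets, and the library names follow the same order. A set held 8 mice and thus more than 1 box of 4, and whether it is a dissection day or a library batch is not given in the labels. Since the authors stressed whole boxes, the CTRL and CSDS mice of a set came from different boxes. A difference between them cannot be told apart from one between boxes. In a fit with the sets, 8 of 9 members passed an adjusted p of 0.05 in the mPFC, against 17.1% of all genes, and 0 of 9 in the vHipp, against 5.81%, by edgeR's quasi-likelihood test. Among members, Foxp2 had the lowest adjusted p in the mPFC (0.00075), followed by Rprm (0.00274) and Tle4 (0.00534), and Cux2 did not pass (adjusted p = 0.116). In the mPFC, 11 of 14 other layer 6 genes, 8 of 14 other layer 5 genes and 7 of 13 other upper-layer genes passed the same test, as did 6 of 9 other excitatory markers, 4 of 5 neuronal, 4 of 6 microglial, 3 of 6 astrocyte, 3 of 8 interneuron and 3 of 12 striatal markers. Of the choroid plexus and dentate granule lists 1 gene each passed, and of the other layer 4, layer 6b, oligodendrocyte and hippocampal pyramidal lists 0. The part of these cells in the differences between sets was not tested.

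Set 1 held the lowest deep-layer levels in the mPFC. The medians of Foxp2 in the 5 sets were 2.15, 4.98, 7.34, 7.82 and 8.66 CPM, those of Rprm 14.6, 17.2, 24.2, 30.7 and 39.7 CPM, and those of Cux2 260, 174, 182, 216 and 183 CPM. In set 1 the 8 Foxp2 values lay between 1.51 and 4.62 CPM and the 8 Cux2 values between 123.3 and 300.1 CPM, so that Cux2 alone did not separate it from the others. Of the 11 libraries with all 6 deep-layer genes below their medians, 6 were in set 1, 3 in set 2 and 2 in set 4. In set 2, the 4 CTRL and the 3 CSDS libraries did not overlap for Foxp2 (4.98 to 10.7 against 2.16 to 3.33 CPM), Tle4 (43.2 to 61.9 against 36.8 to 41.0 CPM), Rprm (17.2 to 42.9 against 7.96 to 16.9 CPM) and Rorb (22.5 to 24.4 against 25.7 to 29.5 CPM), where 5.12% of all genes did not overlap. In sets 1, 3, 4 and 5 CTRL and CSDS overlapped for all 9 members, where 1.58%, 2.09%, 1.99% and 4.81% of all genes did not overlap. The opposition of upper- and deep-layer genes was present inside the sets, where r was taken without removing group means. Differences between the groups of a set are thus part of these values. All 12 upper-deep pairs of the mPFC had a negative r in each of the 5 sets of 7 to 8 libraries, of varying size, from -0.88 to -0.48 for Cux2 with Fezf2, from -0.60 to -0.57 for Cux2 with Foxp2, from -0.81 to -0.19 for Cux2 with Bcl11b, from -0.91 to -0.11 for Rorb with Foxp2 and from -0.76 to -0.02 for Rorb with Bcl11b. Of the 15 deep-layer pairs, 13 had a positive r in each of the 5 sets. The other 2 were negative in 1 set each, Bcl11b with Tbr1 (r = -0.17) and Bcl11b with Rprm (r = -0.00). With group and set means removed, 12 of 12 upper-deep pairs and 15 of 15 deep pairs passed, and r of Cux2 with Fezf2 was -0.71.

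**Figure D5:**
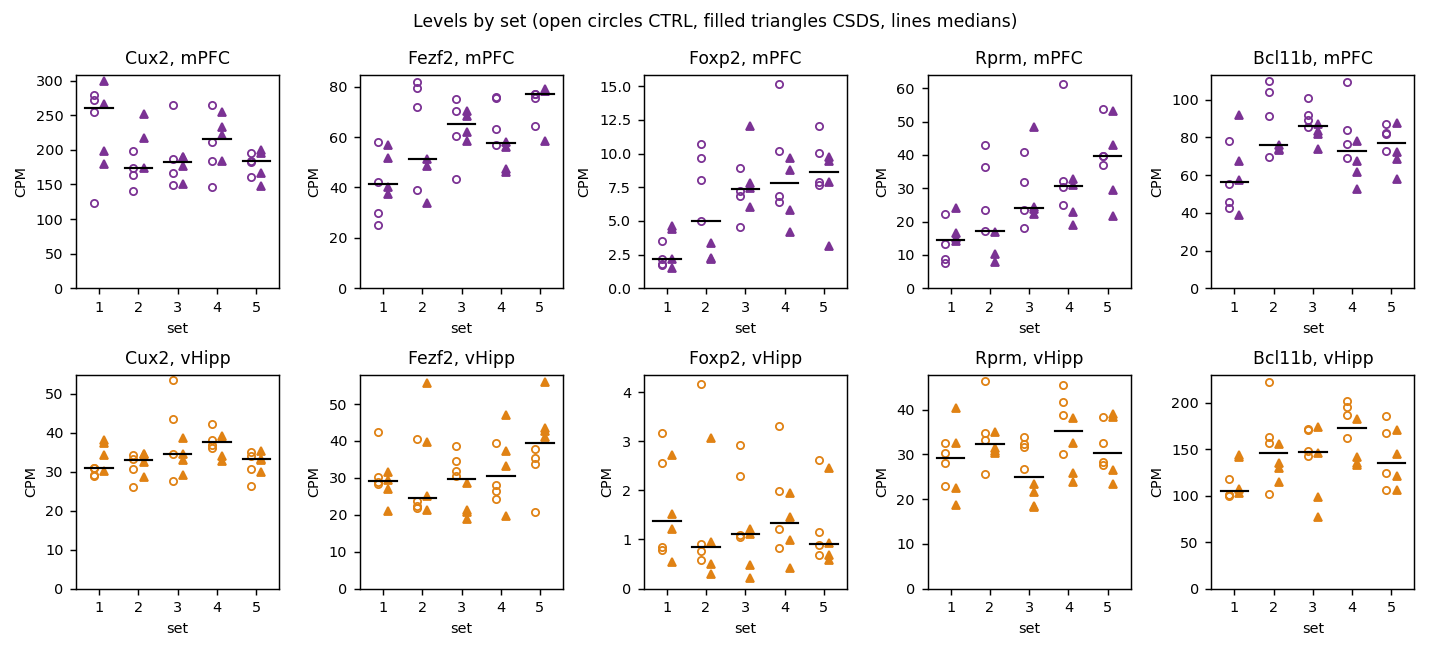
CPM of layer markers by set of mouse numbers in each region, with open circles for CTRL, filled triangles for CSDS and lines for medians. In the mPFC, Foxp2 lay between 1.51 and 4.62 CPM in set 1 and had medians of 4.98 to 8.66 CPM in the others, and in set 2 the CTRL and CSDS mice did not overlap for it (4.98 to 10.7 against 2.16 to 3.33 CPM).

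Markers of layers and of other cells moved with the members as well, and their part in the covariation was not tested. Of 261 pairs of a member with the summed CPM of a marker list, 70 in the mPFC and 42 in the vHipp passed an adjusted p of 0.05. In the mPFC the 6 deep-layer members had r of 0.72 to 0.94 with the sum of the 14 other layer 6 genes, of which Grik3 and Foxp1 were the most abundant, and r of 0.58 to 0.83 with the sum of the 14 other layer 5 genes, of which Etv1 and Parm1 were. Cux2 had r = 0.58 with the sum of the 13 other upper-layer genes, -0.74 with layer 5 and -0.67 with layer 6, and Rorb had r = 0.68 with the upper-layer sum. Upper- and deep-layer members thus moved with the upper-layer sum and with the layer 5 and layer 6 sums, respectively. The sums of the other layer 4 genes (0 of 9 members) and of layer 6b (1 of 9, Tle4 at r = 0.43) had few correlations that passed.

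Among general cell types of the mPFC, the neuronal sum (Snap25 and Syt1 the most abundant) had r of 0.60 to 0.85 with the deep-layer members and -0.61 with Cux2, and the microglial sum had r of -0.77 to -0.41 with the deep-layer members and 0.49 with Cux2. The microglial sum ranged over 230 to 403 CPM in the mPFC. The sum of other excitatory genes, led by Camk2a, had r = 0.77 with Cux2 and -0.75 with Fezf2, and the hippocampal pyramidal sum, led in the mPFC by Wfs1, which also stands on the upper-layer list, had r = 0.71 with Cux2. The dentate granule sum, at 57.3 to 92.2 CPM, had r = 0.60 with Cux2. The oligodendrocyte sum, which spanned 577 to 6539 CPM, had r = -0.50 with Cux2 and 0.45 with Bcl11b and did not pass with any other deep-layer member. The striatal sum, at 208 to 288 CPM, and the interneuron sum, at 688 to 1037.5 CPM, passed with 0 of 9 members.

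In the vHipp the members went with different lists from one another. Bcl11b had r = 0.89 with the upper-layer sum, led by Rasgrf2 and Mef2c, and 0.54 with the dentate granule sum, led by Prox1. Tbr1 had r = 0.55 with the dentate granule sum and -0.65 with the hippocampal pyramidal sum, and Fezf2 had r = 0.83 with the layer 5 sum and 0.75 with the layer 6b sum. Rorb had r = 0.83 with the astrocyte sum (Slc1a2, Slc1a3) and 0.81 with the microglial sum, and Foxp2 had r = 0.60 with the oligodendrocyte sum. Slc17a7 had r = -0.75 with the astrocyte sum and 0.73 with the neuronal sum. Without mouse 11, which had the highest astrocyte and microglial sums, r of Rorb was 0.72 with astrocytes and 0.69 with microglia, r of Slc17a7 was -0.62 with astrocytes and 0.74 with neurons, and r of Tbr1 with the hippocampal pyramidal sum was -0.72. Each of the vHipp correlations named here passed without it, by permutation and adjusted over the vHipp alone. Of the others, Cux2 with microglia and Rorb with the interneuron and upper-layer sums no longer passed, and Fezf2 with the interneuron and oligodendrocyte sums and Slc17a7 with the layer 5 sum did. Choroid plexus sums of the vHipp fell into separate clusters, with a median of 26.0 CPM and 1 library at 695.9 CPM, and no r was computed for them. The depth of the library moved with no member at an adjusted p under 0.05, and the lowest was that of Rorb in the vHipp (r = -0.44, permutation p = 0.00496, adjusted p = 0.0893).

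The genes whose level followed each member most closely, among genes of a mean CPM of at least 1, are given as a description. In the mPFC, for 8 members, they were Kcnh4 for Cux2 (r = 0.87), Ctnnd1 for Rorb (0.77), Galnt9 for Fezf2 (0.93), Nrip3 for Bcl11b (0.89), Syt6 for Foxp2 (0.93), Cntnap4 for Tle4 (0.95), Lpgat1 for Tbr1 (0.93), and Nxph3 for Rprm (0.95), over 39 libraries. Syt6 and Nxph3 stand on the layer 6 list, and Bcl6, among the 3 nearest of Bcl11b (0.88), stands on the layer 5 list. Tle4 was among the 3 nearest of Foxp2 and of Tbr1, and no member was among the 3 nearest of Tle4. In the vHipp the nearest were Rnd3 for Cux2 (0.79), Ddah1 for Rorb (0.92), Gm19410 for Fezf2 (0.89), Tacc1 for Bcl11b (0.87), Dip2a for Foxp2 (0.75), Zfpm2 for Tle4 (0.85), Ermp1 for Tbr1 (0.69), Vipr1 for Rprm (0.73) and Slc25a22 for Slc17a7 (0.97), over 40 libraries. Of these, Zfpm2 stands on the layer 6 list, and Ldb2, among the 3 nearest of Fezf2 (0.87), stands on the layer 5 list. No member was among the 3 nearest genes of another in the vHipp.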

How the data were processed

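RNA from mPFC and vHipp punches was sequenced as stranded mRNA libraries after the authors left out samples with an RNA integrity number under 8. They removed 1 outlier after sequencing, in quality control of the counts. The authors deposited raw counts per gene, not normalized, for 55471 genes in 79 libraries. The submitters' processing notes name GRCm38 and bcl2fastq 2.20.0.422, and the aligner and counter are not given in the sources used here. The 327 identifiers without a symbol were kept in library sizes and tests.

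Members and lists were chosen with earlier results of these data known. Genes with a total count over 10 and detected in more than 3 libraries were tested with edgeR 4.0.16 (R 4.3.3), TMM scaling and the quasi-likelihood test, fitted over all groups of a region, or over both regions for mPFC against vHipp, with Benjamini-Hochberg adjustment at 0.05. DESeq2 1.42.0, other scaling, no filter, the sets of mouse numbers as a term or left out, and the mouse as a block were alternatives. CPM used TMM factors of all libraries. Covariation used log2 CPM with a prior count of 2, scipy 1.17.1 and 100000 two-sided permutations within groups. The test of sets, the tests of differences in r between regions, of the same gene in both regions and of depth, the overlap of CTRL and CSDS within sets, and the fits and correlations without mouse 11 were added after the data were seen. Named neighbours were the 3 genes with the highest r at a mean of at least 1 CPM. Fits were tested on simulated data. The closest libraries of each group differed beyond sampling noise. The labels give each library a mouse, and p-values reflect the spread between mice. The authors stressed whole boxes of 4 mice and fitted the box, which the labels do not give. Tests and permutations here thus treated the mice of 1 box as independent. The main fit between the regions also treated the 2 libraries of a mouse as independent. Values of a few listed or neighbouring genes are not reported here.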

Additional observations from a re-analysis of the deposited data

Results flagged for a closer look

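In 72 combinations of member, region and group, 7 held 1 library whose gap to its nearest neighbour was large for the range of the group, by Dixon's criterion, which chance alone meets in about 1 of 20 groups. The vHipp library of mouse 30 (ctrl_Saline) had the highest Cux2, at 53.52 CPM, with the next at 36.94 CPM. The mPFC library of mouse 19 (csds_Saline) had the lowest Rorb, at 15.97 CPM, with the next at 22.47 CPM. Rorb was highest in the vHipp library of mouse 11 (csds_Ketamine), at 51.2 CPM against 27.95 CPM in the next, and the same library had the highest astrocyte and microglial sums of its region. Mouse 23 (ctrl_Ketamine) had the lowest Tle4 of its vHipp group, at 58.5 CPM with the next at 74.25 CPM, and the lowest Tbr1 of its mPFC group, at 114.7 CPM with the next at 154.0 CPM. Mouse 24 (ctrl_Saline) had the lowest Tbr1 of its vHipp group, at 30.59 CPM with the next at 43.52 CPM. The lowest Slc17a7 of the ctrl_Saline mPFC libraries was in mouse 27, at 1252 CPM with the next at 1487 CPM.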

How the results depend on the processing

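No result changed sign as a call. Within regions 0 genes passed an adjusted p of 0.05 under edgeR and DESeq2, so these comparisons can show only that no difference in a layer marker was detectable. The groups pooled dominant and subordinate mice, since social rank is not in the labels, and the fits held no box term. The authors split the mice by rank, fitted the box and report differing genes for stress in the mPFC of dominant ketamine-treated mice. With the mouse as a replicate block, where the pairing comes from both regions of 1 mouse, 15437 of 31497 genes and 8 of 9 members passed between the regions, and the block changed no other call among the members. In the vHipp, the number of deep-layer pairs that passed was 1, and it was 4 without TMM, 0 with group and set means removed, 2 with no group means removed, 2 without mouse 11 (chosen after seeing the data) and 0 without the 2 farthest libraries. In the mPFC, the number of pairs with Slc17a7 that passed was 1, and it was 2 without TMM, 3 with no group means removed and 4 without the 2 farthest libraries. The cause was not tested. In the vHipp, Tle4 with Tbr1 did not pass with group and set means removed (r = 0.37, adjusted p = 0.0705) or without the 2 farthest libraries (r = 0.36, adjusted p = 0.0701), both by permutation. Rorb with Foxp2 did not pass with no group means removed (r = 0.21, adjusted p = 0.269), without the 2 farthest libraries (r = 0.36, adjusted p = 0.0602) or without mouse 11. Foxp2 reads in the vHipp limit what can be seen of that gene.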
